A study of Mus musculus with 9 samples.

Results

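The genes examined here encode 7 small surface proteins of blood cells that are held in the outer leaflet of the membrane by a glycosylphosphatidylinositol (GPI) lipid anchor: Ly6a, Ly6c1, Ly6e, Ly6d, Cd24a, Cd48 and Cd52. Their probes were found by matching the transcript accession of each probe to these genes, with no use of measured values. The 7 genes themselves were chosen with earlier results of these data known, so their counts beside the shares of all probes are descriptive. This gave 8 of the 41174 probes on the array, of which Cd48 had 2 and each other gene 1. All 8 were among the 36585 probes tested and read well above background on all 9 arrays.

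A GPI-anchored protein has no membrane-spanning segment and no cytoplasmic tail, so that it sits on the cell surface through its lipid alone. Ly6 proteins share a small disulfide-bonded fold with the urokinase receptor, and many of their mouse genes lie side by side on chromosome 15. Ly6a (Sca-1) marks hematopoietic stem cells and multipotent progenitors, Ly6c1 belongs to the Ly6C antigens used to stage monocytes and neutrophils, and Ly6d is used to mark early commitment to the B lineage. CD24 and CD52 are very short, heavily glycosylated peptides that can engage Siglec receptors, and CD48 is an immunoglobulin-domain member of the SLAM family that binds CD2 and CD244.

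Arrays were hybridized with Cy3-labeled total RNA (150 ng) from FDCPmix, a mouse multipotent hematopoietic progenitor line kept in self-renewal conditions. Cells were transduced with lentivirus and viable GFP-positive cells were sorted 5 days later. The EV group received the empty virus, the Gata2 KD group virus encoding short hairpin RNA against Gata2, and the Pu.1 KD group the same against Pu.1 (Spi1), with 3 arrays in each group. The hairpins were carried by a Lentilox lentiviral vector, and how many hairpin sequences each target had is not given in the labels. All 3 groups were thus transduced and sorted samples of 1 cell line. The labels describe triplicate samples without saying whether these were separate cultures, so that p-values measure the spread between these samples. In bulk RNA of this kind, fewer cells expressing a gene and less RNA per cell cannot be told apart.

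Between 80.4% and 89.6% of spots on an array were well above background, and arrays of 1 group correlated at 0.962 to 0.992. The 3 slides each carried 1 array of every group. The brightest Gata2 probe changed by -1.61 in Gata2 KD (log2, adjusted p = 0.00414) and Spi1 by -1.73 in Pu.1 KD (0.00178), while Spi1 was higher by 1.39 in Gata2 KD. All 8 markers of multipotent progenitors read well above background on all 9 arrays, and 2 of them, Cd34 and Kit, were called in both knockdowns (Cd34 by 2.17 in Gata2 KD and -0.92 in Pu.1 KD, Kit by 0.75 and 1.41). Csf2rb2 was called in Gata2 KD only, where it was lower (-0.93, adjusted p = 0.038). The 8 markers thus held 2 called higher and 1 lower in Gata2 KD (2.96% and 2.24% of all tested probes). In Pu.1 KD 1 was higher and 1 lower (1.27% and 1.42%). A level is the log2 intensity of a probe after subtracting that array's 75th percentile, and a change is a difference between mean levels of groups. Levels of different probes are not comparable, so the level of a gene was compared only with its own level on other arrays. Mean levels of a marker list were likewise compared only between arrays. Likeness of genes used levels centered on their own mean. A gene is called changed at a Benjamini-Hochberg adjusted p under 0.05 in limma, adjusted over all tested probes.

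Against EV, Gata2 KD raised 3 of the 7 genes, Ly6a, Ly6c1 and Cd52, and 0 were called lower on their brightest probe. Over all tested probes 2.96% were called higher and 2.24% lower. The 3 Gata2 KD arrays did not overlap the 3 EV arrays for 5 genes, 4 of them higher (Ly6a, Ly6c1, Cd52 and Cd24a) and 1 lower (Cd48), where 18.6% of all probes did not overlap. The median change of the 7 genes was 0.76, and that of all named genes was -0.09.

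Pu.1 KD lowered 2 of the 7 genes, Cd52 and Cd24a, and 0 were called higher, against 1.42% and 1.27% of all tested probes. Groups did not overlap for 4 genes, of which Ly6a was higher and Ly6e, Cd24a and Cd52 were lower (17.3% of all probes). The median change was -0.44, beside -0.04 for all named genes. Both comparisons rest on the same 3 EV arrays, so each change carries the error of the EV level.

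Set against each other without EV, the knockdowns differed in 5 of the 7 genes. Ly6a, Ly6c1, Cd24a and Cd52 were higher in Gata2 KD and Cd48 was lower, while 4.86% and 4.77% of all tested probes were called higher and lower. The groups did not overlap for 6 genes (25.8% of all probes), the exception being Ly6d.

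**Figure D1:**
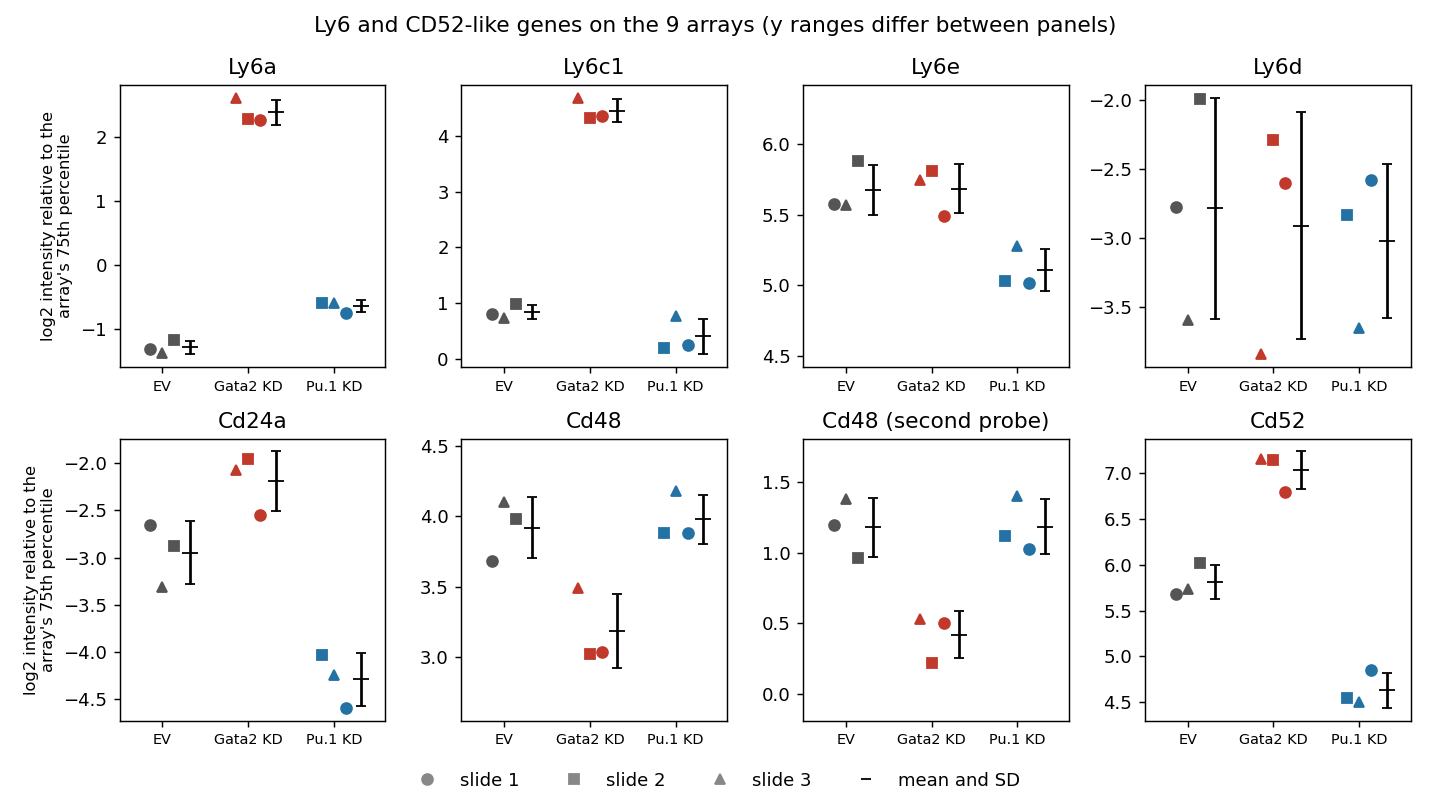
Level of each of the 8 probes (y axis, log2 intensity minus the array's 75th percentile) in the EV, Gata2 KD and Pu.1 KD arrays (x axis). Each point is 1 array, its shape gives the slide, and the black mark and bar are the group mean and SD (n = 3). Ly6a and Ly6c1 stand above all other arrays in Gata2 KD, and Ly6d separates by slide, with slide 3 lowest in every group.

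Ly6a rose in Gata2 KD. Its levels were -1.32, -1.37 and -1.17 on EV arrays 1, 2 and 3, 2.61, 2.28 and 2.27 on Gata2 KD arrays, and -0.59, -0.60 and -0.75 on Pu.1 KD arrays. The 3 groups were fully separated, in the order EV, Pu.1 KD, Gata2 KD. The rise in Gata2 KD was 3.67 with an SE of 0.15 (12.8-fold, adjusted p = 7.49e-06), and within the slides it ran from 3.45 to 3.98. In Pu.1 KD the difference from EV was 0.64 with an SE of 0.15 (adjusted p = 0.0642), which was not called, although it lay between 0.57 and 0.78 on every slide and passed the threshold under 6 of 21 alternatives, among them slide as a block (adjusted p = 0.0406). Gata2 KD exceeded Pu.1 KD by 3.03 (adjusted p = 6.13e-06). Of the spread of Ly6a over the 9 arrays 99.5% lay between groups.

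Ly6c1 also rose in Gata2 KD and was not called in Pu.1 KD. Its levels were 0.81, 0.74 and 0.99 in EV, 4.68, 4.31 and 4.36 in Gata2 KD, and 0.20, 0.77 and 0.25 in Pu.1 KD. Every Gata2 KD array was above every other array, while Pu.1 KD array 2 fell within the EV range. The change was 3.60 in Gata2 KD (SE 0.19, 12.1-fold, adjusted p = 2.76e-05) and -0.44 in Pu.1 KD (SE 0.19, 95% interval from -0.88 to 0.00, adjusted p = 0.406). Gata2 KD exceeded Pu.1 KD by 4.04 with an SE of 0.19 (16.5-fold, adjusted p = 6.03e-06), the largest among the 7 genes. Ly6c1 has a near-identical neighbor, Ly6c2, to which no probe was matched, and whether the Ly6c1 probe tells them apart was not tested.

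Of the 7 genes, 2 had an upstream region in the RefSeq promoter table (build GRCm38.p6), Ly6c1 with 2 transcript starts and Cd48 with 1. The 250 bases before each start were searched on both strands for the GATA motifs AGATAA and TGATAA, the PU.1 motif GGAAGTG and the shorter PU.1 core GAGGAA. Those of Ly6c1 are shown because this gene had the largest difference between the knockdowns, with any matched motif in capitals, and both are on the minus strand and read 5′ to 3′ toward the start. The outer is chr15:75048838-75049087 and the inner chr15:75048664-75048913.
Ly6c1, outer start: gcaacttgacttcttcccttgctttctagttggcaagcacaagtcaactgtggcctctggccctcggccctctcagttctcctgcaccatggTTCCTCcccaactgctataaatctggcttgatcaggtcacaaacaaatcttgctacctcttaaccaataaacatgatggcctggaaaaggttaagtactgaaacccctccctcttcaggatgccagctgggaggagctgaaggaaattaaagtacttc
Ly6c1, inner start: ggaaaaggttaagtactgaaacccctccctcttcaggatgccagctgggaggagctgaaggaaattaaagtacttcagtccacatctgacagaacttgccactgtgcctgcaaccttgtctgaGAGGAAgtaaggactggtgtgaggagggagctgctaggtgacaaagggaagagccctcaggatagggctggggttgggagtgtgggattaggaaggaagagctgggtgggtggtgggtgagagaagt
Each window held 1 match, the PU.1 core, beginning 158 bases before the outer start (on the opposite strand) and 127 bases before the inner start. The core occurred in 23.3% of all 32851 windows of this length, the GATA motifs in 16.6% and the longer PU.1 motif in 8.55%. A match describes these letters in this window and was not measured as binding.

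Ly6e, an interferon-inducible Ly6 protein expressed in many tissues, differed from Ly6a, which lies near it on the chromosome with Ly6i between them. Its levels were 5.58, 5.57 and 5.88 in EV, 5.75, 5.81 and 5.49 in Gata2 KD, and 5.03, 5.28 and 5.02 in Pu.1 KD. The EV and Gata2 KD arrays interleaved, whereas all Pu.1 KD arrays were below them. The change in Gata2 KD was 0.01 (SE 0.16, 95% interval from -0.36 to 0.37, adjusted p = 0.997), an interval that ends far below the changes of Ly6a and Ly6c1. In Pu.1 KD it was -0.57 (SE 0.16, adjusted p = 0.131) and Gata2 KD exceeded Pu.1 KD by 0.57 (adjusted p = 0.0626), and neither difference was called. Under 3 and 7 of 21 alternatives these passed the threshold in the same direction, the difference between knockdowns among others with slide as a block (adjusted p = 0.0315).

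Ly6d followed the slides and not the groups. Its probe was dim (processed intensities 40.9 to 123 in EV, 30.6 to 95.7 in Gata2 KD and 39.7 to 81.0 in Pu.1 KD). Its levels were -2.77, -3.59 and -1.99 in EV, -3.84, -2.29 and -2.60 in Gata2 KD, and -2.83, -3.65 and -2.58 in Pu.1 KD. The lowest array of each group was the one on slide 3, and the groups overlapped throughout. Of the spread of Ly6d 87.3% lay between slides and 2.49% between groups. Its changes of -0.12 in Gata2 KD and -0.24 in Pu.1 KD had an SE of 0.52, with 95% intervals from -1.33 to 1.08 and from -1.44 to 0.97 (adjusted p = 0.986 and 0.995). With slide as a block the SE was 0.21 and neither change was called (adjusted p = 0.766 and 0.587). Among 7 B cell markers tested 0 were called in Gata2 KD, and 1, the B cell receptor chain Cd79b, was called in Pu.1 KD, where it was lower. Of all tested probes 2.96% were called higher and 2.24% lower in Gata2 KD, and 1.27% and 1.42% in Pu.1 KD.

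Cd52 and Cd24a read highest in Gata2 KD and lowest in Pu.1 KD, with EV between them. Cd52 read 5.68, 5.73 and 6.02 in EV, 7.15, 7.14 and 6.79 in Gata2 KD, and 4.55, 4.5 and 4.85 in Pu.1 KD. No 2 groups overlapped, in the order Pu.1 KD, EV, Gata2 KD. Its processed intensities were 26122 to 31591 in EV and 59771 to 66067 in Gata2 KD. No spot on the arrays was flagged as saturated, and whether so bright a probe understates a rise was not tested. Cd52 rose by 1.22 in Gata2 KD (SE 0.17, 2.33-fold, adjusted p = 0.00448) and changed by -1.18 in Pu.1 KD (SE 0.17, 2.26-fold lower, adjusted p = 0.0121), and the direct difference of 2.40 was 5.27-fold (adjusted p = 5.9e-05). On the slides the Pu.1 KD difference ran from -1.47 to -0.83, and its call was lost under 4 of 21 alternatives. It was lost without Pu.1 KD array 1 (adjusted p = 0.0663) or array 2 (0.0585). The other losses came with only the 2 groups compared in the fit (0.0608) and with the replicate number as a block (0.0664).

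Cd24a had levels of -2.65, -3.31 and -2.88 in EV, -2.07, -1.96 and -2.55 in Gata2 KD, and -4.03, -4.24 and -4.59 in Pu.1 KD. It showed the same order of groups without overlap, though EV array 1 and Gata2 KD array 3, both on slide 1, nearly met. In Gata2 KD the change of 0.76 (SE 0.24, adjusted p = 0.154) was not called, and it was 0.10 on slide 1, 0.93 on slide 2 and 1.24 on slide 3. Pu.1 KD lowered Cd24a by a log2 change of -1.34 (SE 0.24, 2.53-fold lower, adjusted p = 0.0267). The direct difference between the knockdowns was 2.09 (SE 0.24, 4.27-fold, adjusted p = 0.000825) and lay between 2.03 and 2.17 on each slide. The probe was dim, with processed intensities of 49.8 to 93.5 in EV and 20.2 to 28.3 in Pu.1 KD, and normexp background correction brought the Pu.1 KD change to -0.53 and the direct difference to 1.03, the second of which was still called. In the deposited log2 values these were -0.74 and 1.31, both called. The Pu.1 KD call was lost under 11 of 21 alternatives (adjusted p up to 0.109), including leaving out EV array 1 or 3, Gata2 KD array 2 or any Pu.1 KD array.

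Cd48 was the gene whose arrays were lower in Gata2 KD without overlap. Its brightest probe read 3.68, 4.10 and 3.98 in EV, 3.49, 3.02 and 3.04 in Gata2 KD, and 3.88, 4.18 and 3.88 in Pu.1 KD. The Gata2 KD arrays lay below all others on this probe, and EV and Pu.1 KD overlapped. The second probe gave the same picture, at 1.20, 1.38 and 0.96 in EV, 0.53, 0.22 and 0.50 in Gata2 KD, and 1.12, 1.40 and 1.03 in Pu.1 KD. The change in Gata2 KD was -0.74 on the brightest probe (SE 0.19, adjusted p = 0.0714), which was not called, and -0.76 on the second (SE 0.17, adjusted p = 0.0428), which was. In Pu.1 KD the probes changed by 0.06 (95% interval from -0.37 to 0.49) and 0.00 (from -0.39 to 0.40). The difference of Gata2 KD from Pu.1 KD was -0.80 (adjusted p = 0.0327) and -0.76 (0.0265), both called. The first of these calls was lost under 7 of 21 alternatives, among them leaving out Gata2 KD array 2 (adjusted p = 0.138) or 3 (0.124) or any Pu.1 KD array (0.0771 to 0.124), whereas the call against EV was gained under 7, among them slide as a block (0.011).

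The region upstream of Cd48, chr1:171681742-171681991 on the plus strand of GRCm38.p6, is shown because no further member had a region to search.
Cd48, upstream: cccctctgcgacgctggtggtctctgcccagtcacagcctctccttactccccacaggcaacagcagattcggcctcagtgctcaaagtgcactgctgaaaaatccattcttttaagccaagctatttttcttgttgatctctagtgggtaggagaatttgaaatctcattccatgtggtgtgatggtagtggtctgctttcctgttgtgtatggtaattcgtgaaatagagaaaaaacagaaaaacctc
It held 0 matches to the 4 motif sequences. Most windows lack each motif, as the PU.1 core occurred in 23.3% of all windows, the GATA motifs in 16.6% and the longer PU.1 motif in 8.55%. Windows of 2 genes cannot show whether a motif goes with a direction of change.

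**Figure D2:**
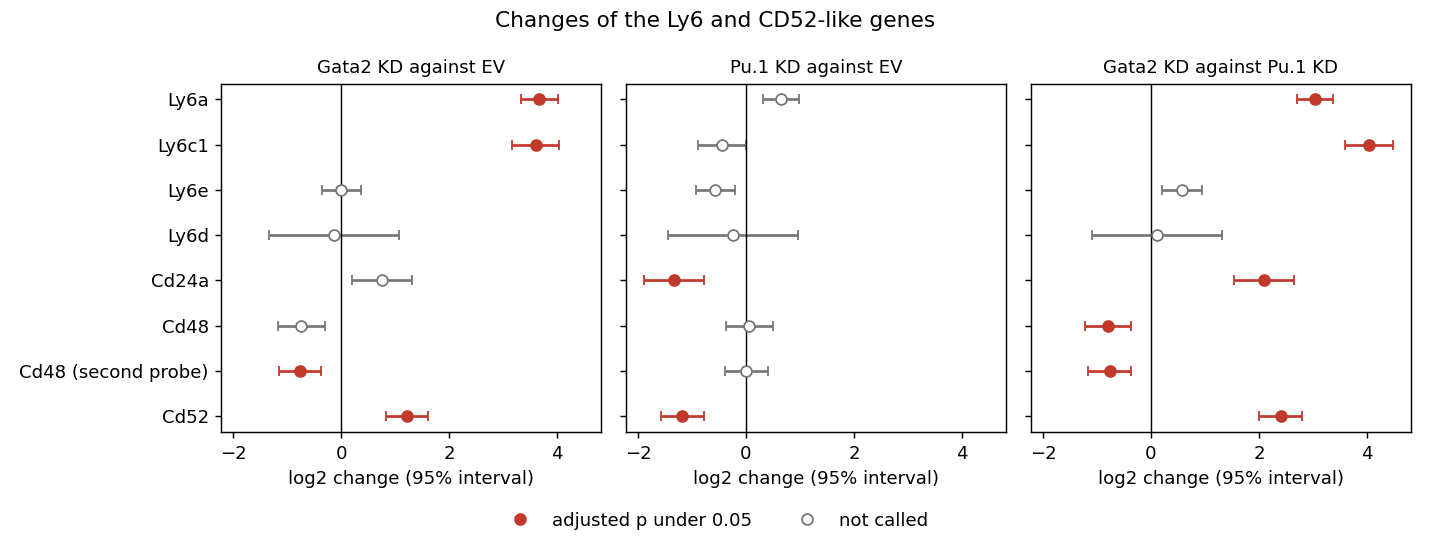
Log2 change of each probe (x axis) in the 3 comparisons, with its 95% interval (bars) from the fit over 9 arrays. Filled red points were called and open gray points were not. The intervals of Ly6a and Ly6c1 in Gata2 KD start above 3, and those of Cd24a and Cd52 lie above 0 in Gata2 KD and below 0 in Pu.1 KD, although Cd24a was not called in Gata2 KD.

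The 4 Ly6 genes lie in 1 run on chromosome 15, and taking all genes from Ly6d to Ly6c1 with 5 on either side gave 18 further genes, of which 10 were tested. In Gata2 KD 2 of these 10 were called higher and 0 lower, and in Pu.1 KD 0 were called. The shares of all tested probes called higher and lower were 2.96% and 2.24% in Gata2 KD and 1.27% and 1.42% in Pu.1 KD. The 2 genes called higher were Ly6i, between Ly6e and Ly6a in the run, with a change of 1.73 (SE 0.19, adjusted p = 0.000969), and Ly6f, past Ly6c1, with 1.46 (SE 0.26, adjusted p = 0.0138). Both encode Ly6 proteins. Together with Ly6a and Ly6c1, the 4 genes raised in Gata2 KD were all the tested genes of the stretch that follows Ly6e in this window. The window was cut 5 genes past Ly6c1, so it does not show where such a stretch ends. This stretch was marked out after its values were seen. On the side of Ly6e toward Ly6d the tested genes, including Ly6k, Lynx1 and Slurp1, changed by -0.46 (Cyp11b2) to 0.30 (Gml2), and 0 were called. In Pu.1 KD, Ly6i changed by 0.24 and Ly6f by -0.02. Ly6c2, Ly6a2, Ly6g and Ly6g2 in the same stretch had no probe matched. These genes are close paralogs, and cross-hybridization between them was not tested.

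**Figure D3:**
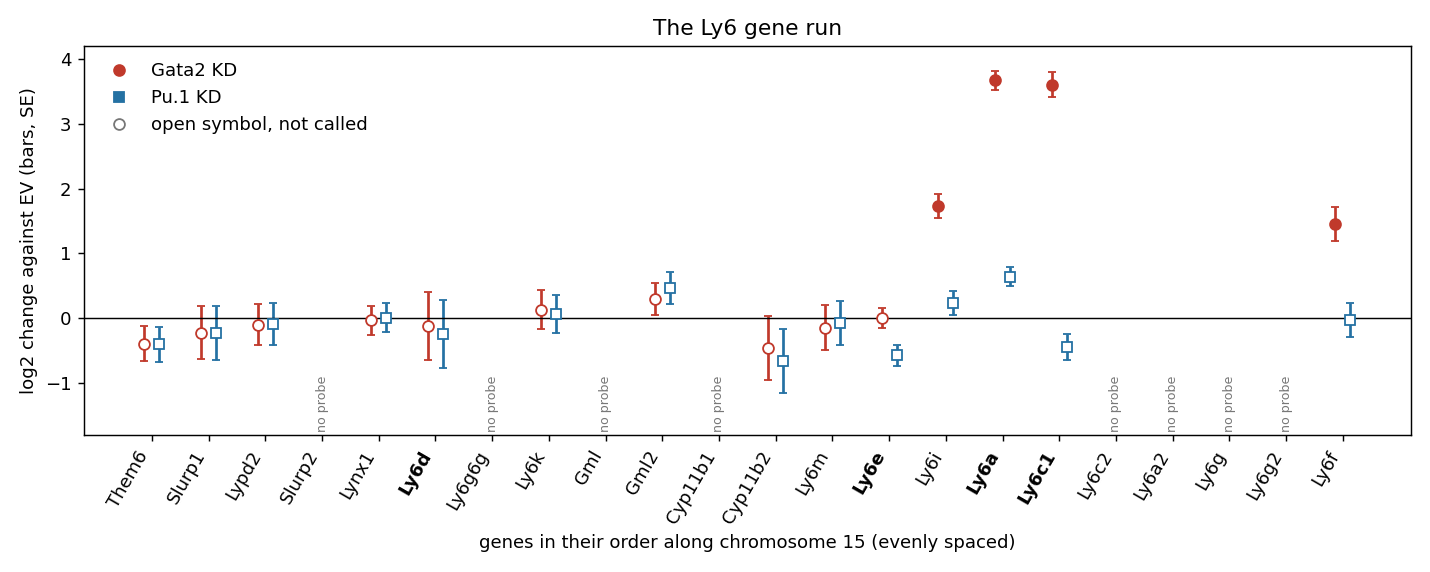
Log2 change against EV (y axis, bars are SE) of the genes of the Ly6 run in their order along chromosome 15 (x axis, evenly spaced, with the 4 Ly6 members in bold). Filled symbols were called and open ones were not. In Gata2 KD (red circles) Ly6i, Ly6a, Ly6c1 and Ly6f were called higher, at 1.46 to 3.67, and in Pu.1 KD (blue squares) 0 genes were called.

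The genes next to the other members were counted in the same way, beside 2.96% of all probes called higher and 2.24% lower in Gata2 KD and 1.27% and 1.42% in Pu.1 KD. Of 9 tested neighbors of Cd48, only Slamf1 was called in either knockdown, at -1.18 in Gata2 KD (adjusted p = 0.00385) and 1.33 in Pu.1 KD (0.00621). Slamf1 encodes a further SLAM receptor and was called lower in Gata2 KD, as was Cd48 on its second probe, whereas Cd48 was not called in Pu.1 KD. Of 7 tested neighbors of Cd52, Sh3bgrl3 rose by 0.68 in Gata2 KD (adjusted p = 0.0372) and the kinase gene Rps6ka1 changed by -0.78 in Pu.1 KD (0.0165). Of 7 around Cd24a, Bend3 was called in Gata2 KD, with a change of -0.70 (0.0272), and 0 in Pu.1 KD.

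The wider Ly6/uPAR family held 37 further genes, of which 28 were tested. In Gata2 KD 3 were called higher and 1 lower (2.96% and 2.24% of all tested probes), and in Pu.1 KD 1 higher and 1 lower (1.27% and 1.42%), with medians of -0.03 and -0.04 beside -0.09 and -0.04 for all named genes. Besides Ly6i and Ly6f, the urokinase receptor gene Plaur was higher in Gata2 KD (1.23, adjusted p = 0.00104), and it was lower in Pu.1 KD (-0.80, 0.02), the same directions as Cd52. The gene called lower in Gata2 KD was Cd59a (-0.67, 0.0274), which encodes an inhibitor of the complement membrane attack complex. The gene called higher in Pu.1 KD was Lypd6b (0.81, 0.0462).

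Other GPI-anchored proteins of blood cells changed in both directions. Of 22 tested, 6 were called higher and 3 lower in Gata2 KD, and 1 higher and 2 lower in Pu.1 KD, beside the same shares of all probes. Plaur and Cd59a belong to this list and to the Ly6/uPAR list, and are counted in both. The largest rises in this list were those of Bst1 (CD157, a cyclic ADP-ribose enzyme, 4.28, adjusted p = 0.0015), Cd14 (the lipopolysaccharide co-receptor, 3.17, 2.76e-05) and the dipeptidase Dpep2 (2.91, 2.76e-05). The 3 lower genes, named here after their values were seen, were Cd55 (decay-accelerating factor, -2.53), Art4 (-1.44) and Cd59a. In Pu.1 KD Thy1 (-1.07, 0.02) and Plaur were lower and Sema7a was higher (0.83, 0.0237).

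Of 27 tested genes of the machinery that builds and remodels the GPI anchor 1 was called higher (Mppe1, 0.91) and 1 lower (Pgap4, -1.14) in Gata2 KD, beside 2.96% and 2.24% of all tested probes, and 0 in Pu.1 KD. Both act on the anchor after it is attached to protein. Their adjusted p values were 0.00352 and 0.002. Piga, which encodes a subunit of the enzyme of the opening step, changed by -0.53 in Gata2 KD and 0.19 in Pu.1 KD and was not called. The medians of the list were -0.12 and 0.00.

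CD2 and CD244, which CD48 binds, were not called. Cd2 changed by 0.12 in Gata2 KD and -0.11 in Pu.1 KD (adjusted p = 0.962 and 0.993), and Cd244a by -0.43 and -0.13 (0.296 and 0.954). Of 11 tested genes of CD2, the SLAM receptors and their adaptors, 2 were called higher in Gata2 KD, the adaptor Sh2d1b1 (2.19, adjusted p = 0.00591) and Slamf9 (0.84, 0.0404), and 1, Slamf1, was lower, beside 2.96% and 2.24% of all tested probes. In Pu.1 KD 1 of the 11 was higher, Slamf1, and 0 were lower (1.27% and 1.42% of all probes). Of 9 Siglec and P-selectin genes 2 were higher in Gata2 KD, Cd33 (1.41, 0.00623) and Selp (0.61, 0.0277), and 1 was lower in Pu.1 KD, Siglecf (-2.41, 0.000916). Selp encodes P-selectin, a receptor for CD24 glycoforms. Siglecg, which encodes a receptor for CD24, changed by 0.44 and -0.04 (adjusted p = 0.494 and 1.0) and was not called.

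**Figure D4:**
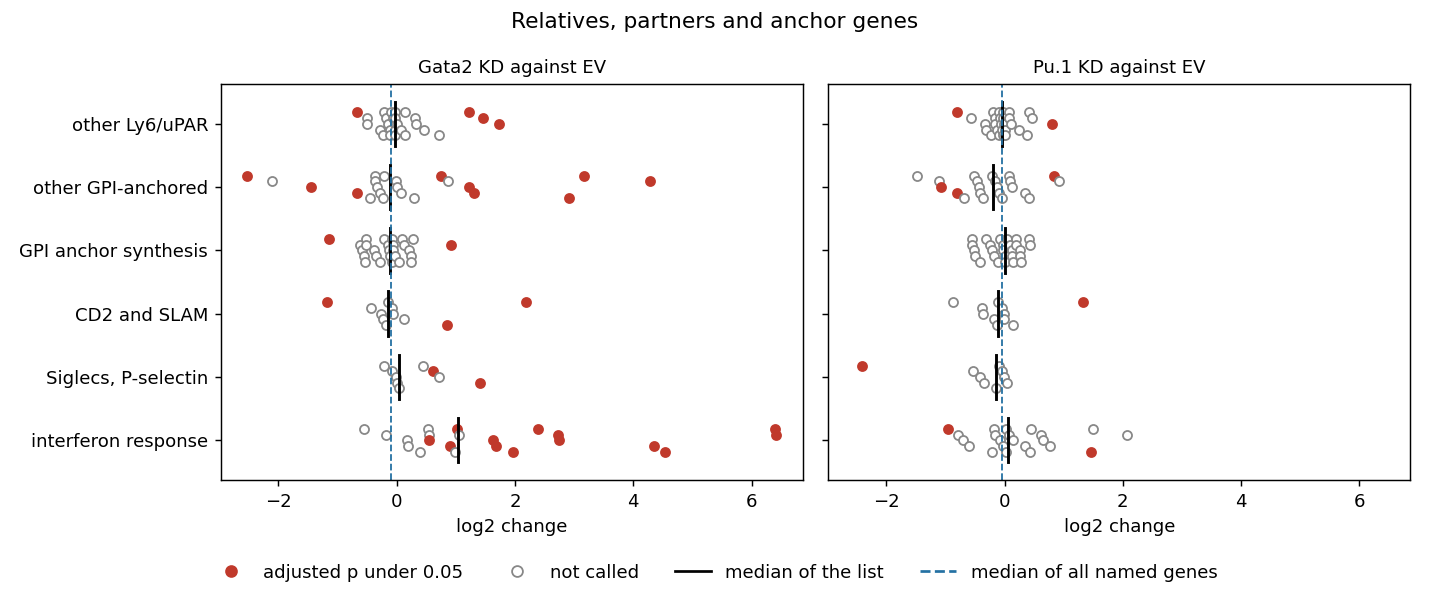
Log2 change (x axis) of each tested gene in 6 related lists (y axis) for Gata2 KD and Pu.1 KD against EV. Points are genes, red where called, black bars are list medians and the dashed line is the median of all named genes. The interferon list is shifted to the right in Gata2 KD, with a median of 1.04, and the medians of the anchor synthesis list are -0.12 and 0.00.

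Neutrophil markers were called in the directions of Cd52 in both knockdowns. Ly6a did not follow them in Pu.1 KD, where it was 0.64 above EV (not called). Cd48 was lower in Gata2 KD (called on its second probe). The part of maturing myeloid cells in the member changes was not tested. The counts below stand beside 2.96% of all tested probes called higher and 2.24% lower in Gata2 KD. In Pu.1 KD these shares were 1.27% and 1.42%. Of 12 neutrophil markers 10 were called higher in Gata2 KD and 8 lower in Pu.1 KD, and their mean log2 level lay between -0.13 and 0.21 in EV, 2.77 and 3.04 in Gata2 KD, and -1.49 and -1.40 in Pu.1 KD. Of 9 tested monocyte and macrophage markers 5 were higher in Gata2 KD and 1, Adgre1, was lower in Pu.1 KD, with mean levels of -2.07 to -1.71, 0.43 to 0.49 and -2.22 to -1.82. Of 22 tested interferon response genes 13 were higher and 0 lower in Gata2 KD, with a median change of 1.04, and 1 was higher and 1 lower in Pu.1 KD, with a median of 0.05. The interferon list is given because Ly6a, Ly6c1 and Ly6e are known as interferon-inducible. Of the 22 changes in Gata2 KD 20 were positive, and the others were Usp18 (-0.56) and Ifi35 (-0.18), not called. Irf7, a transcription factor of that response, rose by 1.67 (adjusted p = 0.00136) and Isg15 by 1.97 (0.00112), both named after their values were seen. Ifit2 changed by 0.17 in Gata2 KD and Ly6e itself by 0.01, and neither was called. The gene called lower in Pu.1 KD was Usp18 (-0.96, adjusted p = 0.0182). Among 8 mast cell and basophil markers 5 were lower in Gata2 KD, as was Cd48 on its second probe, and 1 was higher and 2 lower in Pu.1 KD. Of 5 tested eosinophil markers 2 were higher in Gata2 KD (Prg2 by 1.78 and Epx by 1.61) and 3 lower in Pu.1 KD (Prg2, Epx and Prg3, by -2.44, -2.02 and -1.23), the directions of Cd52, with mean levels of -1.74 to -1.11 in EV, -0.31 to -0.21 in Gata2 KD and -2.66 to -2.25 in Pu.1 KD. Of 7 megakaryocyte markers 2 were higher and 1 lower in Gata2 KD and 3 higher and 1 lower in Pu.1 KD, and of 8 erythroid markers 2 were lower in Gata2 KD and 2 higher in Pu.1 KD. Among 7 T and NK cell markers 0 were called in either knockdown, and of 6 dendritic cell markers 1 was lower in Gata2 KD and 0 were called in Pu.1 KD. Each marker in these lists with a probe read well above background on at least 1 array.

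The profiles of the 7 genes over the 9 arrays were compared with each other and with those of other named genes. Likeness was measured as the root mean square difference of levels, each centered on its own mean, in log2 units. Among the 21 pairs of members the closest were Cd24a with Cd52 (0.34) and Ly6a with Ly6c1 (0.52), and the farthest were Cd48 and Ly6c1 (2.18). This measure depends on the size of changes. Those of Cd24a shrank under normexp background correction, for which likeness was not computed. Over 15484 named genes, Ly6a was most like Lpl, the lipoprotein lipase gene (0.18), and Rassf4 (0.21), and Ly6c1 most like the transcription factor gene Cebpd (0.26) and the granule protein gene Ltf (0.27). Cd52 was most like Jdp2 (0.12) and Thy1 (0.16), and Thy1 also encodes a GPI-anchored protein. Cd24a was nearest to the chemokine gene Ccl6 (0.24) and Tesk2 (0.27), Ly6e to Stat3 (0.08) and Akr1b3 (0.08), and Cd48 to Ubxn2a (0.06) and Mios (0.06). For Ly6d, whose spread lay between slides, Psg18 (0.15) and Gata3 (0.17) were nearest. These values describe the same 9 arrays, which share slides and scaling, and a gene that varies little lies near many others.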

How the data were processed

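Total RNA of 9 FDCPmix samples (3 each of EV, Gata2 KD and Pu.1 KD) was labeled with Cy3 and measured on Agilent arrays of the mouse genome, 1 sample an array. For each array the authors deposited the intensity output of Agilent Feature Extraction 10.1.1.1, which is background-subtracted and detrended but not normalized between arrays. They also deposited a table of log2 values of the same arrays, with column medians of 7.002 to 7.048 and correlations of 0.997 to 1.000 with the log2 median signal, used as an alternative only; its normalization is not given in the sources used here.

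From each log2 processed signal the 75th percentile of its array was subtracted. Control spots and outlier-flagged spots (47 to 96 per array) were left out, and spots of a probe were averaged. Probes well above background on at least 3 arrays, with 2 or more values in every group, were tested with limma 3.58.1 in R 4.3.3 (lmFit over all 9 arrays, eBayes, Benjamini-Hochberg, two-sided, adjusted p under 0.05). The code was tested on simulated data. An exact permutation test of 3 against 3 arrays cannot go below a p of 0.1 and was not used. The number of arrays limits the precision.

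Probes were named by matching accessions to RefSeq GRCm38.p6 genes (23374 of 41174 probes), and the probe of highest mean level represented a gene. Members and lists were chosen with earlier results of these data known. Named genes were the members, Gata2 and Spi1, the 2 genes most like each member, and called neighbors. From each list, the called genes with the 3 largest changes per knockdown were picked. Not every gene so picked is given. Others were named outside this rule, among them Irf7, Isg15, Ifit2, Ifi35, Cd55, Art4, Cd59a, Piga, Cd2, Cd244a, Siglecg and uncalled genes of the Ly6 run. Figures were drawn with matplotlib. Alternatives were the replicate number or slide as a block, normexp background correction (offset 50), quantile or median scaling, the filter on dim probes, flagged spots kept, trend and robust eBayes, the log2 table, a fit restricted to the pair of groups compared, a 2-fold minimum, the mean of a gene's probes, and each array left out.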

Additional observations from a re-analysis of the deposited data

How the results depend on the processing

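Over 22 alternatives the count of members called was 3 to 4 in Gata2 KD and 4 to 6 between the knockdowns. In Pu.1 KD, where 2 members were called, it was 0 with the replicate block and with only the 2 groups compared, 1 with scaling to the median, and 4 with the trend and robust settings and with the deposited log2 values, and it ran from 0 to 2 when each array was left out. Ly6a, Ly6c1 and Cd52 in Gata2 KD, and these and Cd24a between the knockdowns, kept their direction and call under all 21 alternatives run for single genes, and no called change turned its sign. Same-numbered arrays of different groups deviated together in 4 of 9 pairs (r from -0.552 to 0.652 over probes, against 8 of 9 for arrays of 1 slide). Slide differences were left in these correlations, and most same-numbered arrays lay on different slides. They therefore cannot tell whether the numbers pair the samples. With the replicate block the adjusted p of Cd52 and Cd24a in Pu.1 KD was 0.0664 and 0.0639, and 3, 0 and 4 members were called in Gata2 KD, in Pu.1 KD and between the knockdowns. With slide as a block the counts were 4, 3 and 6. The number of probes called was 1902 in Gata2 KD (1072 without Gata2 KD array 2 to 2886 with slide as a block), 986 in Pu.1 KD (223 with only the 2 groups compared to 1875 with slide as a block) and 3524 between the knockdowns (1883 with a 2-fold minimum to 5168 with slide as a block). The cause of these differences was not tested. Among the called member changes, those of Cd24a moved by over 1.5 times under normexp background correction, to -0.53 in Pu.1 KD and 1.03 between the knockdowns, and in the deposited log2 values, to -0.74 and 1.31, and signal over background limits what its dim probe can show.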
